A study of Mus musculus with 4 samples.

Results

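MiR-21a was examined as the most abundant miR of bone marrow-derived proangiogenic cells (PACs), which are adherent marrow cells that stain for lectin binding and for uptake of acetylated lipoprotein. Its members were all rows of the deposited table whose name starts with miR-21a, which gave 2 of 568 listed miRs, the 5p and the 3p arm of the hairpin. MiR-21a was chosen by its measured share of the libraries, so the share, the rank and the level of miR-21a-5p are given as a description, without a test.

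All mice had undergone removal of a femoral artery, and PACs were grown for 4 days on fibronectin from marrow taken 2 days after surgery. The groups were 3 models of cardiovascular risk factors (CRF) and a control. They were aging (C57Bl/6 mice, 16 months old), SMK (C57Bl/6 mice, 2 months old, with smoke exposure that began 14 days ahead of surgery), HC (APOE-/- mice, 2 months old, given Western-type chow starting 5 weeks ahead of surgery) and CTL (healthy C57Bl/6 mice, 2 months old). HC thus differs from CTL in genotype and in diet, which cannot be told apart. Each group is 1 library of pooled RNA, made from 2 samples for aging, 4 for SMK, 4 for HC and 6 for CTL according to the sample labels, while the pool of 2 lies below the range that the methods give. There were no replicates, so no p-value is given, and every interval below covers counting error only.

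The unit is RPM, defined in the study as reads per 1000000 mapped reads, with 568 miRs listed in each library. The listed miRs filled 99.0% (HC) to 99.6% (CTL) of the total behind these values. A share of the library is thus a share of miR counts, and not of all RNA reads. Values in a library are whole multiples of its smallest value, which returned the counts used here. Their totals ranged from 1038986 in HC to 2541732 in CTL, and 1 count was worth between 0.393 and 0.962 RPM. Of listed marker miRs, 4 of 6 myeloid ones (the arms of miR-223 and miR-142a) had at least 100 RPM in all 4 libraries, whereas both arms of miR-511 reached at most 26.9 RPM, and miR-511-5p was at a lone count in aging. The 6 epithelial markers summed to between 201.2 and 243.9 RPM. The lymphoid miR-150-5p reached at most 43.1 RPM and the liver miR-122-5p at most 14.4 RPM. The 3 listed of 4 erythroid markers summed to 273.3 RPM in HC, against 47.2 to 74.3 RPM in the other libraries.

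MiRs are short RNAs that, loaded on Argonaute, pair with messenger RNAs through the seed near their 5′ end and repress them. MiR-21 is induced by STAT3, AP-1 and NF-κB in activated myeloid cells, fibroblasts and many tumors. Its well known targets include Pdcd4, a tumor suppressor that inhibits translation, and the Sprouty proteins, which restrain growth factor signaling. Dicer cuts a 5p and a 3p strand from 1 hairpin, and usually 1 of them, the guide, is kept while the other is degraded.

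Mir21a lies on chromosome 11, chr11:86584067-86584158 on the minus strand (GRCm38.p6). The hairpin falls within exon 12, the last exon, of the Vmp1-201 transcript of Vmp1 on the same strand, in a part annotated as untranslated. Vmp1 encodes a membrane protein needed for autophagy. The table also lists miR-21b (chr3:29636768-29636790, plus strand) and miR-21c (chr8:128278188-128278208, minus strand), whose mature sequences resemble miR-21a-5p. The 4 mature sequences are shown because the arm balance and the risk of mixed counts both turn on them. They are from RefSeq (GRCm38.p6), 5′ to 3′, with the seed, bases 2 to 8, in capitals.
miR-21a-5p: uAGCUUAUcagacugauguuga
miR-21a-3p: cAACAGCAgucgaugggcuguc
miR-21b: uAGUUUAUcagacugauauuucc
miR-21c: uAGCUUAUcagacugguacaa

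In the RefSeq set, miR-21c was the only other mature miR with the seed of miR-21a-5p, and no other one had the seed of miR-21a-3p. MiR-21c shares its first 15 bases with miR-21a-5p and then differs by A16G, G18A, U19C, U20A and G21A, counted from the 5′ end with the base of miR-21a-5p first. MiR-21b differs by C4U, which lies in the seed, and by G18A, G21U and A22C. The authors mapped perfect matches first and later allowed up to 2 mismatches. Shortened or altered reads of miR-21a-5p could therefore be counted under the names miR-21b or miR-21c, and the values of those 2 rows are uncertain for this reason.

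MiR-21a-5p was the most abundant miR in all 4 libraries and made up at least 26.7% of each. It had 267374 RPM in aging PACs, 313084 RPM in SMK PACs and 274087 RPM in HC PACs, against 310000.4 RPM in CTL PACs. These levels rest on 419498 counts in aging, 522854 in SMK, 284773 in HC and 787938 in CTL. SMK and CTL were the high libraries and aging and HC the low ones. As a share of the total the levels are 26.7% (Wilson 95% interval, 26.7 to 26.8) for aging, 31.3% (31.2 to 31.4) for SMK and 27.4% (27.3 to 27.5) for HC, against 31.0% (30.9 to 31.1) in CTL. From low to high the order was aging, HC, CTL and SMK.

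The fold over CTL was 0.862 (0.859 to 0.866) for aging, 1.01 (1.01 to 1.01) for SMK and 0.884 (0.880 to 0.888) for HC. Ranges in parentheses are exact 95% intervals, taken from the counts of both libraries as Poisson counts. Among neighbors in the order, HC over aging was 1.03 (1.02 to 1.03) and SMK over CTL was 1.01. The step between HC and CTL was the largest of the 3 steps in the order. SMK over aging was 1.17 (1.17 to 1.18) and SMK over HC 1.14 (1.14 to 1.15). No spread between mice can be set beside these ratios, since each library is a single pool. The 3 comparisons share 1 CTL library.

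**Figure D1:**
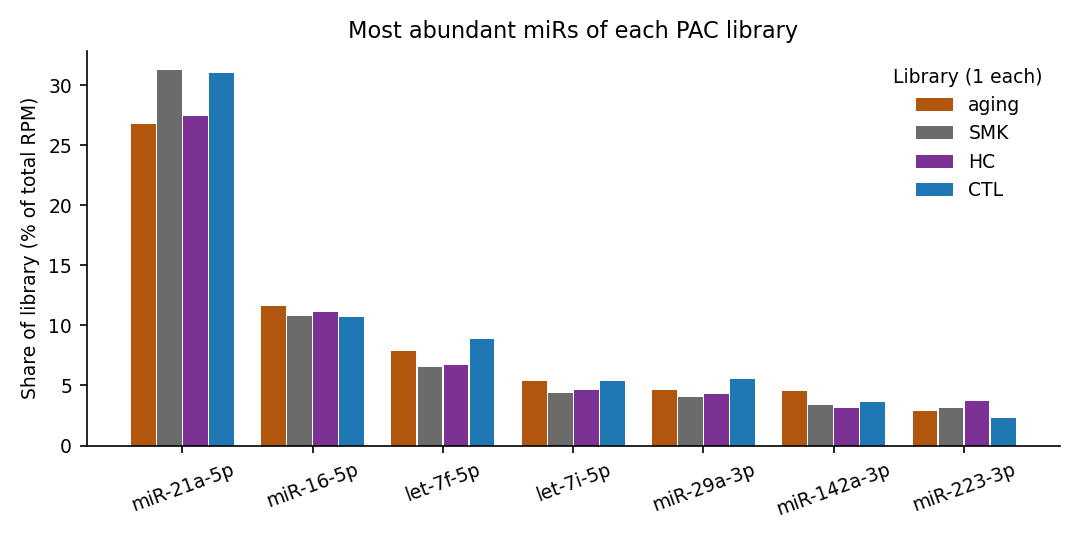
Share of each library, in percent of total RPM, taken by 7 abundant miRs, with bars for the aging, SMK, HC and CTL libraries (1 library each). MiR-21a-5p reached 26.7% for aging, 31.3% for SMK and 27.4% for HC, against 31.0% in CTL, while the next, miR-16-5p, took at most 11.6%.

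The next miR in every library was miR-16-5p, known to restrain the cell cycle. MiR-21a-5p exceeded it 2.30 times (2.29 to 2.31) for aging, 2.905 times (2.89 to 2.92) for SMK and 2.47 times (2.45 to 2.49) for HC, against 2.89 times (2.88 to 2.91) in CTL. This ratio needs no scaling between libraries, and it was again lower in aging and HC than in CTL. In rank 3 was let-7f-5p, of a family that restrains proliferation. The ratio of miR-21a-5p to let-7f-5p was 3.38 for aging, 4.79 for SMK and 4.09 for HC, against 3.48 in CTL, so that HC exceeded CTL on this measure. Let-7f-5p itself was at 0.734-fold in SMK and 0.752-fold in HC. Ranks 4 and 5 were shared between let-7i-5p and miR-29a-3p, which targets collagen genes, in all 4 libraries.

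MiR-21a-5p outweighed several of the following miRs combined. The next 4 miRs together passed its level for aging, the next 6 for SMK and the next 5 for HC, against the next 5 in CTL. The 4 most abundant miRs were needed to reach 50% of the library in aging and SMK, and 5 in HC, against 3 in CTL. The inverse Simpson index, the number of equally abundant miRs that would give the same evenness, was 9.50 for aging, 7.93 for SMK and 9.47 for HC, against 7.78 in CTL. Without miR-21a-5p it was 16.4, 17.6 and 18.1 in aging, SMK and HC, against 15.0 in CTL. SMK and CTL were close on the index with miR-21a-5p included, whereas all 3 CRF libraries were above CTL without it.

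**Figure D2:**
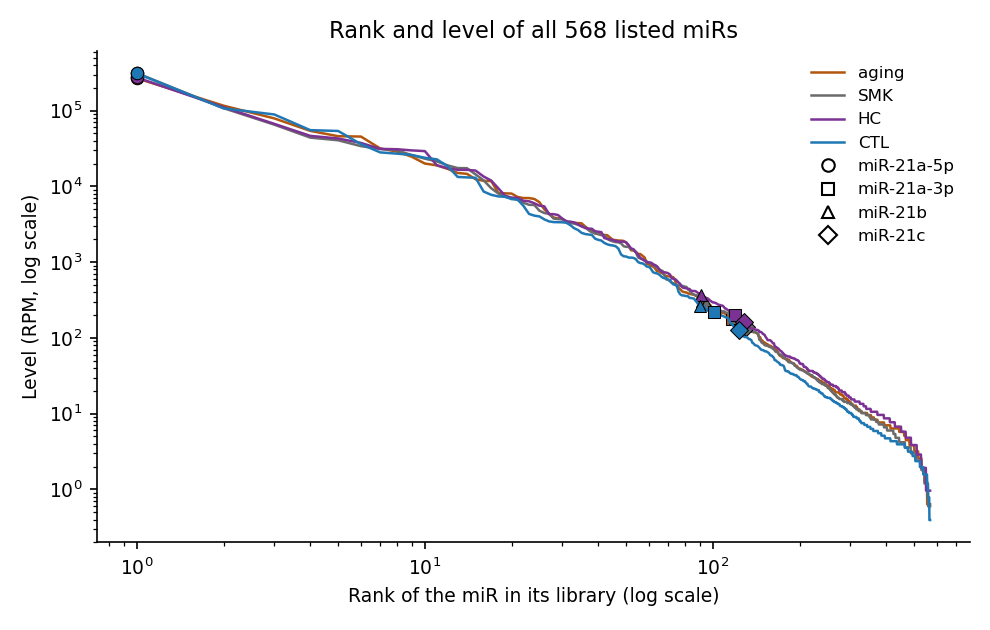
Level in RPM against rank of all 568 listed miRs in the aging, SMK, HC and CTL libraries, both axes on log scales, with symbols for the 4 miR-21 rows. MiR-21a-5p holds rank 1 in each library, while miR-21b (ranks 90 to 95), miR-21a-3p (101 to 119) and miR-21c (123 to 130) lie far down the curves.

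MiR-21a-3p, the strand cut from the opposite side of the hairpin, was present at over 100 RPM in every library. It had 175.3 RPM for aging, 185.6 RPM for SMK and 203.1 RPM for HC, against 216.8 RPM in CTL. These are 275, 310 and 211 counts in aging, SMK and HC, against 551 in CTL. All 3 CRF libraries were below CTL. The fold was 0.809 (0.697 to 0.936) in aging and 0.856 (0.743 to 0.986) in SMK, and the interval of the HC fold of 0.937 (0.796 to 1.10) includes 1. This arm held rank 117 for aging, 119 for SMK and 119 for HC, against 101 in CTL.

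The arms were thus highly unequal. There were 1525 counts of the 5p arm for each count of the 3p arm (1355 to 1723) for aging, 1687 (1509 to 1891) for SMK and 1349.6 (1179 to 1552) for HC, against 1430.0 (1315 to 1557) in CTL. The 5p arm made up 99.9% of both arms in each library. This ratio is taken within a library and is free of scaling. Relative to CTL it was at 1.07-fold (0.923 to 1.23) for aging, 1.18-fold (1.03 to 1.36) for SMK and 0.944-fold (0.805 to 1.11) for HC. The intervals of these 3 values were taken on the log scale. Only the SMK interval leaves out 1, and with 3 comparisons of single pools this shows no more than a difference beyond counting error between 2 libraries.

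Other hairpins give the scale for this balance. Both arms were listed for 116 hairpins, and 77 of them had a mean of at least 100 RPM for the arms together. The median excess of the larger over the smaller arm was 33.6-fold for aging, 34.1-fold for SMK and 38.9-fold for HC, against 36.3-fold in CTL. MiR-21a ranked 3 of 77 for aging, 6 for SMK and 5 for HC, against 5 in CTL. Just above it in CTL were miR-29a (4392-fold for the 3p arm), miR-26b (2357-fold for the 5p arm) and miR-23a (1717-fold for the 3p arm), each with only 5 to 32 counts of the smaller arm. Just below it were miR-27b (1157-fold, 3p), let-7i (1062-fold, 5p) and miR-34a (694.4-fold, 5p), a p53 target. The intervals of miR-23a (735.4 to 5289), miR-27b (722.6 to 1987) and miR-26b (1405 to 4312) overlap that of miR-21a in CTL, so that the order among these was not resolved. The highest excess in CTL was that of miR-146a, with 71416 counts of its 5p arm and 15 of its 3p arm.

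The balance of miR-21a moved little in comparison with these hairpins. The log2 change of the ratio of the arms was 0.09 for aging, 0.24 for SMK and -0.08 for HC. The median absolute change over 77 hairpins was 0.68, 0.56 and 0.76 in the same order. Only 8 hairpins for aging, 20 for SMK and 6 for HC changed less than miR-21a. Many of the others rest on few counts of the smaller arm, and the comparison is a description.

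**Figure D3:**
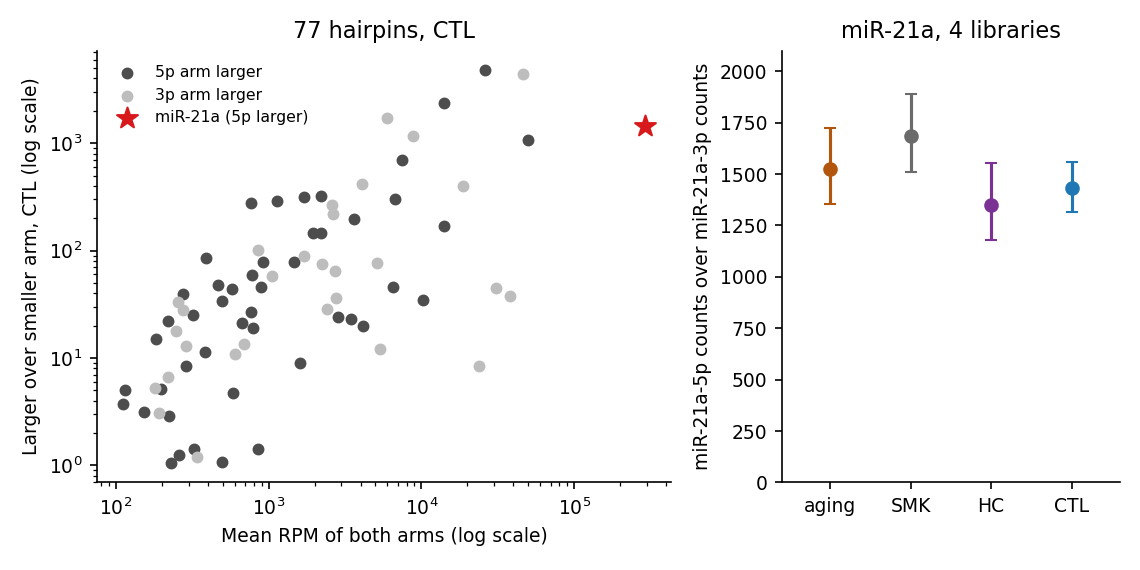
Left, larger over smaller arm in CTL against the mean RPM of both arms for 77 hairpins, both axes on log scales. Right, miR-21a-5p counts over miR-21a-3p counts in the aging, SMK, HC and CTL libraries, with exact 95% counting intervals. MiR-21a lies far to the right of the other hairpins, at a ratio of 1525 for aging, 1687 for SMK and 1349.6 for HC, against 1430.0 in CTL.

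The 2 rows with related sequences took another course. MiR-21b had 303.4 RPM for aging, 288.0 RPM for SMK and 363.8 RPM for HC, against 267.5 RPM in CTL. The fold was 1.36 (1.196 to 1.54) in HC, 1.13 (1.01 to 1.28) in aging and 1.08 (0.956 to 1.21) in SMK. MiR-21c had 140.2 RPM for aging, 140.1 RPM for SMK and 161.7 RPM for HC, against 126.3 RPM in CTL. Its fold was 1.28 (1.06 to 1.55) in HC, and the intervals in aging (1.11, 0.931 to 1.32) and in SMK (1.11, 0.933 to 1.32) include 1. Both rows were thus highest in HC and lowest in CTL by RPM. With a trimmed mean of log ratios as the scaling, chosen for these rows after the data were seen, the folds of miR-21b were 0.864 for aging, 0.914 for SMK and 1.01 for HC. Those of miR-21c were then 0.846, 0.942 and 0.954 in aging, SMK and HC, so that the direction of 5 of these 6 folds turned with the scaling. With the median ratio, miR-21b (0.965) and miR-21c (0.994) were below 1 in SMK.

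Counted per 1000000 miR-21a-5p counts, which removes any scaling, miR-21b was at 1135 (1035 to 1241) for aging, 919.95 (839.5 to 1006) for SMK and 1327 (1197 to 1468) for HC, against 863.0 (799.3 to 930.4) in CTL. MiR-21c was at 524.4 (457.4 to 598.5) for aging, 447.5 (392.0 to 508.7) for SMK and 589.9 (504.1 to 686.2) for HC, against 407.4 (364.0 to 454.5) in CTL. Aging and HC lay above CTL for both rows, beyond counting error, and the SMK intervals overlapped those of CTL. Folds of these values over CTL are given with intervals taken on the log scale. They were 1.31-fold (1.17 to 1.48) in aging and 1.54-fold (1.36 to 1.74) in HC for miR-21b. They were 1.29-fold (1.08 to 1.53) in aging and 1.45-fold (1.201 to 1.75) in HC for miR-21c. MiR-21a-3p, by the same measure, was at 655.5 for aging, 592.9 for SMK and 740.9 for HC, against 699.3 in CTL.

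MiR-21b and miR-21c kept a nearly fixed ratio to each other. MiR-21b over miR-21c was 2.16 (1.84 to 2.55) for aging, 2.06 (1.75 to 2.41) for SMK and 2.25 (1.87 to 2.71) for HC, against 2.12 (1.85 to 2.43) in CTL. All 4 intervals overlap. How many of these counts came from miR-21a-5p molecules was not tested, since the reads were not analysed here.

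**Figure D4:**
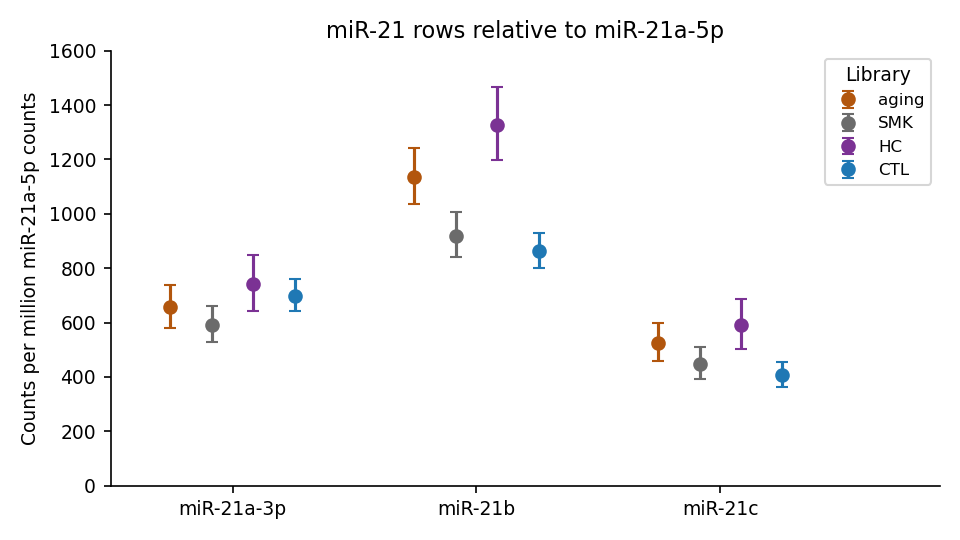
Counts of miR-21a-3p, miR-21b and miR-21c per 1000000 miR-21a-5p counts in the aging, SMK, HC and CTL libraries, with exact 95% counting intervals. MiR-21b was at 1135 for aging, 919.95 for SMK and 1327 for HC, against 863.0 in CTL, and miR-21c followed the same order.

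The study set limits of 0.8-fold for lower and 1.6-fold for higher miRs of at least 100 RPM. Here a miR was tested when it reached 100 RPM in the CRF library or in CTL. The study does not state how its minimum applied to a pair of libraries, and the rule used here gives more calls than it reported. Neither arm of miR-21a passed a limit in any comparison. Among all tested miRs, 59.7% of 154 passed either limit for aging, 34.9% of 146 for SMK and 53.2% of 158 for HC. Lower calls were 26.6% of tested miRs for aging, 14.4% for SMK and 18.4% for HC, and higher calls 33.1% for aging, 20.5% for SMK and 34.8% for HC. The median fold of tested miRs was 1.18 for aging, 1.15 for SMK and 1.25 for HC, so that miR-21a-5p was below the median in each. A fold lower than that of miR-21a-5p was found for 46 miRs for aging, 49 for SMK and 42 for HC. A miR that reached 100 RPM only in the CRF library is above CTL by construction, and one that did so only in CTL is below. The medians and the shares of calls rest partly on such miRs. With 100 RPM required in both libraries, 31 of 124 miRs were higher for aging, 21 of 130 for SMK and 33 of 127 for HC. Lower calls were then 33, 20 and 26 in the same order.

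The side on which miR-21a-5p fell depended on the scaling between libraries. With the median ratio of 123 miRs that had 100 RPM in all 4 libraries, it was at 0.777-fold for aging, 0.905-fold for SMK and 0.798-fold for HC, and so below the lower limit in aging and HC. With a trimmed mean of log ratios, which discards extreme miRs, it was at 0.657-fold, 0.858-fold and 0.658-fold in the same order. MiR-21a-3p, by scalings chosen after the data were seen, was at 0.728-fold, 0.767-fold and 0.845-fold with the median ratio and 0.616-fold, 0.727-fold and 0.698-fold with the trimmed mean. These scalings move every log2 fold alike, by -0.15, -0.16 and -0.15 for the median ratio and by -0.39, -0.24 and -0.43 for the trimmed mean. They also move the split of calls, which was 41 lower and 51 higher for aging, 21 and 30 for SMK, and 29 and 55 for HC. It became 51 and 42, 32 and 23, and 43 and 46 with the median ratio, and 64 and 31, 39 and 17, and 67 and 33 with the trimmed mean.

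**Figure D5:**
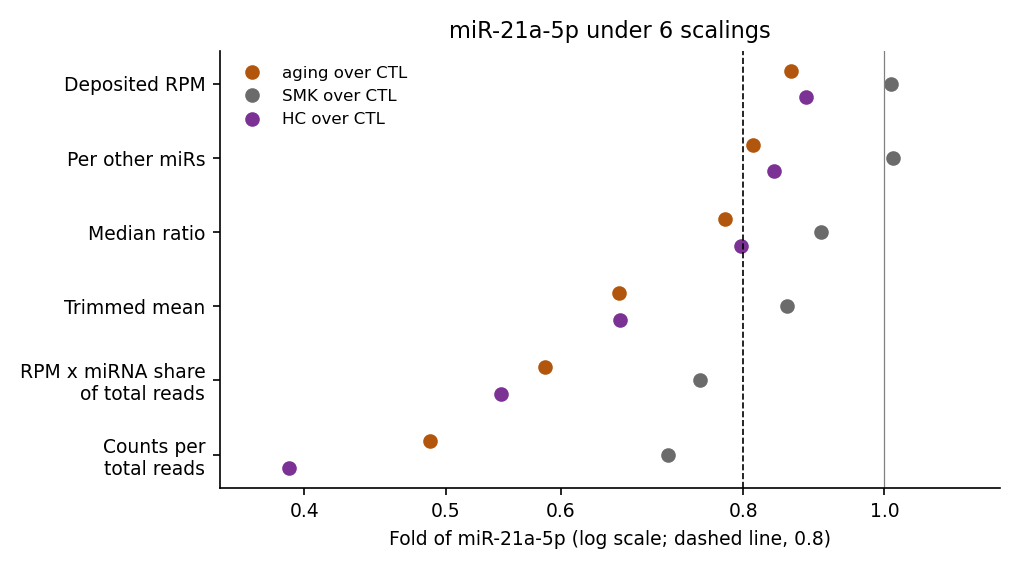
Fold of miR-21a-5p over CTL for aging, SMK and HC (points) under 6 scalings, on a log axis with a dashed line at 0.8. The deposited RPM gave 0.862 for aging, 1.01 for SMK and 0.884 for HC, and the trimmed mean gave 0.657, 0.858 and 0.658.

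Because RPM are parts of a fixed total, the share of miR-21a-5p sets how much is left for all other miRs. The other miRs, with the unlisted counts, had 732626 RPM for aging, 686916 RPM for SMK and 725913 RPM for HC, against 689999.6 RPM in CTL. Leaving miR-21a-5p out of the totals multiplies every other RPM by 1.36 for aging, 1.46 for SMK and 1.38 for HC, against 1.45 in CTL. The number of other miRs at 100 RPM or more then became 161 for aging, 162 for SMK and 167 for HC, against 148 in CTL. With miR-21a-5p in the totals it was 145, 143 and 152, against 131 in CTL.

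The folds of the others shift by the ratio of these factors, and this shift was small. It was -0.09 on the log2 scale for aging, 0.01 for SMK and -0.07 for HC, or -5.82%, 0.449% and -4.95% of each fold. Among the same tested miRs, 8 of 153 changed their call for aging, 1 of 145 for SMK and 11 of 157 for HC. In aging 5 miRs became lower and 3 were no longer higher. In HC 5 became lower and 6 were no longer higher. With the 100 RPM minimum applied again without miR-21a-5p, 169 miRs were tested for aging, 166 for SMK and 173 for HC. Of these 50 were lower and 54 higher for aging, 23 and 41 for SMK, and 37 and 56 for HC. In SMK 30 were higher among the miRs tested before.

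The calls that changed among the same tested miRs were those closest to a limit, and some belong to abundant miRs. In aging the largest was miR-29a-3p, with 45975 RPM against 55299 RPM in CTL, whose fold was 0.831 and became 0.783. The others that became lower were miR-101a-3p, miR-195a-5p, miR-194-5p and miR-21a-3p itself, at 0.809-fold with miR-21a-5p in the totals and 0.761-fold without it. MiR-186-5p, miR-203-3p, known from skin, and miR-425-3p were no longer higher. In HC the largest was miR-223-3p, a miR of granulocytes and monocytes. It had 37472 RPM in HC against 22760.1 RPM in CTL, and its fold of 1.65 became 1.56. MiR-103-3p, miR-221-3p, miR-107-3p, miR-326-3p and miR-362-5p also were no longer higher. MiR-148a-3p, miR-340-5p, miR-34c-5p, miR-30a-3p and miR-130a-3p became lower. In SMK the lower call of miR-155-5p, which drives inflammation in macrophages, ended, at 0.799-fold with and 0.803-fold without miR-21a-5p.

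MiR-21a-5p had the largest RPM difference from CTL of all miRs in aging and HC, but not in SMK. The absolute differences from CTL summed over all listed miRs to 229675 RPM for aging, 142293 RPM for SMK and 234894 RPM for HC. The difference of miR-21a-5p was -42627 RPM for aging, 3084 RPM for SMK and -35913 RPM for HC. This is 18.6% of the sum in aging and 15.3% in HC, rank 1 in both, but 2.17% in SMK, rank 12. Of all RPM lost by miRs that were below CTL, miR-21a-5p accounted for 36.3% in aging and 29.7% in HC. A difference in RPM grows with the level of a miR, and miR-21a was chosen by its share, 31.0% of CTL for the 5p arm. These ranks and percentages are therefore a description. The next in aging were miR-143-3p of smooth muscle (-18971 RPM) and the endothelial miR-126a-3p (-13576 RPM). The next in HC were let-7f-5p (-22048 RPM) and miR-125b-5p (18108 RPM), which is known from hematopoietic stem cells.

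Markers of endothelial and mesenchymal cells varied across the libraries too. The 2 endothelial miRs, both arms of miR-126a, summed to 13795 RPM for aging, 33683 RPM for SMK and 18424 RPM for HC, against 29076 RPM in CTL, which is the same order as that of miR-21a-5p. The 5 mesenchymal miRs summed to 12457 RPM for aging, 31326 RPM for SMK and 23039.8 RPM for HC, against 36417 RPM in CTL. This sum is mostly miR-143-3p, with 27068 RPM in CTL, and the members did not move alike. All 4 tested were lower for aging, none of 4 passed a limit for SMK and 2 of 4 were lower for HC. Lower calls over all tested miRs were 26.6% for aging, 14.4% for SMK and 18.4% for HC. With 4 miRs tested the counts are too small to be read against these shares. MiR-214-3p, under 100 RPM throughout, was at 2.14-fold, 3.18-fold and 3.49-fold in aging, SMK and HC. The 6 myeloid miRs summed to 77107 RPM for aging, 67372 RPM for SMK and 70582 RPM for HC, against 60386 RPM in CTL. These members did not move alike either. MiR-223-3p was at 1.27-fold in aging, 1.37-fold in SMK and 1.65-fold in HC, whereas miR-142a-3p was at 1.26-fold, 0.940-fold and 0.857-fold. All these sums and folds are on the deposited RPM. The part of the marker miRs in the levels of miR-21a-5p was not tested. Fewer cells of a type and less miR per cell cannot be told apart in pooled cultures.

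Other miRs known to be induced by inflammatory signals lay on both sides of CTL. All 8 of a list of them were in the table. Of 3 tested in aging none was past a limit, of 4 in SMK 2 were lower and 1 was higher, and of 4 in HC 1 was higher. Over all tested miRs 59.7% passed either limit for aging, 34.9% for SMK and 53.2% for HC, and with 3 or 4 miRs tested the counts are too small to be read against these shares. Their median log2 fold was 0.09, -0.19 and 0.08 in aging, SMK and HC, beside 0.24, 0.20 and 0.32 for all tested miRs. MiR-146a-5p, which represses Traf6 and Irak1, had 24669 RPM for aging, 21375 RPM for SMK and 29869.5 RPM for HC, against 28097 RPM in CTL (0.761-fold in SMK). MiR-132-3p, induced by CREB, had 197.0 RPM in SMK and 243.5 RPM in HC, against 93.6 RPM in CTL, and was higher in both (2.10-fold and 2.60-fold). It is the 1 higher call in each. Being under 100 RPM in CTL, it was tested only through the libraries where it is high, and could not have been called lower. These calls are on the deposited RPM. With the median ratio, as an alternative added after the data were seen, miR-146a-5p became lower in aging (0.791-fold), and with the trimmed mean 3 of 4 were lower in HC. With the trimmed mean 67 of all 158 tested miRs were lower in HC, and 4 miRs are too few to be read against this. MiR-147-3p, miR-212-3p, miR-9-5p and miR-187-3p stayed under 100 RPM in each library.

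The profiles closest to that of miR-21a-5p were sought among 122 other miRs with at least 100 RPM in all 4 libraries, by the largest absolute difference over the 3 log2 folds. They were miR-28a-3p (0.15), miR-194-5p (0.16), miR-30c-5p (0.18), miR-340-5p (0.19) and miR-30e-3p (0.20), whereas the median over the candidates was 0.68. MiR-194-5p, known from intestine and liver, had 177.2 RPM for aging, 191.0 RPM for SMK and 185.8 RPM for HC, against 211.3 RPM in CTL. MiR-30c-5p had 288.7 RPM for aging, 421.0 RPM for SMK and 293.6 RPM for HC, against 377.3 RPM in CTL. It is the one of these 5 whose levels follow the order of miR-21a-5p through all 4 libraries. The other arm of the hairpin, miR-21a-3p, was in place 11 (0.24). Likeness over 3 folds that share 1 CTL library is a description of these 4 libraries.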

How the data were processed

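RNA of PACs from several mice per group was pooled by the authors into 4 libraries, prepared with a QIAseq kit and mapped in steps with bowtie to miRBase 21, other RNAs and GRCm38. The deposited values are RPM, normalized to library size by the authors. The submitters' processing notes name bcl2fastq 2.20, TopHat2 2.0.10 and HTSeq 0.5.4 instead. Whether reads with the same molecular identifier were merged is not given in the sources used here. The totals of the counts used here were below the miRNA reads that the study lists for each library. This shortfall differed between libraries, and its reason is not given.

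Each RPM value was divided by the smallest of its library, which gave whole counts for 100% of values (tolerance 0.001 count). All counts used here were recovered in this way. A count test was not possible with 1 library per condition. Folds are ratios of RPM with no pseudocount. Intervals of ratios are exact conditional binomial ones and those of shares are Wilson intervals, both at 95%. PCR reads are not independent molecules. Hairpins entered the arm comparison at a mean of 100 RPM over both arms.

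MiRs were named by a rule covering the miR-21 rows, the 5 most abundant miRs, the largest RPM differences, changed calls, closest profiles, neighbors in arm ratio, hairpins within 2 Mb and lists of cell types and inflammation. A further list in the rule is not reported here. Alternatives were other scalings between libraries (2 of them with the total reads that the study gives per library), other minimums, pseudocounts and totals without miR-21a-5p. Members and lists were chosen with earlier results of these data known. Both arms matched the RefSeq miRNA table. The computation of folds and intervals was checked on simulated Poisson counts with planted folds. Such counts hold no variation between mice, pools or PCR, so the check says nothing about the conditions. Python 3.11.15, numpy 2.4.6, scipy 1.17.1, pandas 2.3.3, matplotlib 3.10.9, R 4.3.3 and edgeR 4.0.16 (trimmed mean only) were used.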

Additional observations from a re-analysis of the deposited data

How the results depend on the processing

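The fold of miR-21a-5p moved beyond its counting interval under every other scaling and kept within it with pseudocounts of 1 and 10 RPM. In aging it was 0.777 with the median ratio, 0.657 with the trimmed mean, 0.812 relative to all other miRs, 0.867 relative to the listed miRs, 0.585 with RPM multiplied by the share of miRNA reads in total reads, and 0.488 as recovered counts per total reads. In SMK it was 0.905, 0.858, 1.01, 1.01, 0.748 and 0.711 in the same order. In HC it was 0.798, 0.658, 0.840, 0.890, 0.546 and 0.390. It thus fell below 0.8-fold in aging and HC under 4 of these 6 scalings, and in SMK under both that use total reads. The scaling by recovered counts also carries the shortfall of these counts from the miRNA reads of the study, which differed between libraries. As a share of the listed miRs alone, miR-21a-5p took 27.0% in aging, 31.6% in SMK and 27.7% in HC, against 31.1% in CTL. With no minimum RPM, 377 miRs passed the limits for aging, 301 for SMK and 375 for HC. With 100 RPM required in CTL, the calls were 41 lower and 31 higher for aging, 21 and 21 for SMK, and 29 and 33 for HC. With 100 RPM required in both libraries they were 33 and 31 for aging, 20 and 21 for SMK, and 26 and 33 for HC. The counts past either limit stayed within 1.5 times those on the deposited RPM under every alternative but the lack of a minimum. With 100 RPM required in CTL or in both libraries, the higher counts taken alone moved further in aging and HC, and the lower counts did not. Lower and higher counts both moved further under the trimmed mean (64 and 31, 39 and 17, 67 and 33). With the median ratio the lower count in SMK moved further, to 32 from 21. Adding 1 count to each arm left the ratio of the arms within its interval in all 4 libraries. For miR-21a-3p, by scalings chosen after seeing the data, the fold was 0.728 for aging, 0.767 for SMK and 0.845 for HC with the median ratio, and 0.616, 0.727 and 0.698 with the trimmed mean, below 0.8-fold in 5 of these 6. No paired analysis was possible because each condition had 1 library. With 1 pool per condition, differences between mice are not measured. The 211 counts of miR-21a-3p in HC are the fewest behind a member and limit the precision of the arm ratio.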

Other observations

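Within 2 Mb of Mir21a on chromosome 11, of 7 listed mature miRs from other hairpins, 4 were tested in aging, where 2 were higher and none was lower. Of 3 tested in SMK 1 was higher, and of 4 in HC 1 was higher. MiR-378b, 1 of the 2 higher in aging and the 1 in HC, had 118.6 RPM in aging and 113.6 RPM in HC, against 66.9 RPM in CTL. It passed the minimum only through the libraries where it is high, and could not have been called lower. Over all tested miRs 33.1% were higher for aging, 20.5% for SMK and 34.8% for HC, and the miRs tested here are too few to be read against these shares. By the median ratio, an alternative added after the data were seen, 1 of 4 was higher in aging and none in SMK or HC. MiR-378b was then at 1.596-fold in aging and 1.53-fold in HC, miR-142a-5p at 1.51-fold in SMK, and miR-142a-3p at 0.773-fold in HC, below the lower limit. The nearest hairpin with listed miRs was that of miR-301a, 528.8 kb away, whose 3p arm had 33.1 RPM for aging, 51.5 RPM for SMK and 50.05 RPM for HC, against 48.8 RPM in CTL. The blood cell miR-142a lies 1172.7 kb away on the opposite strand. MiR-142a-3p had 45474 RPM for aging, 33972 RPM for SMK and 30954 RPM for HC, against 36128 RPM in CTL. MiR-142a-5p was higher in aging (2.40-fold) and SMK (1.68-fold), and at 1.58-fold in HC. The hairpin of miR-142b overlaps that of miR-142a on the other strand, and the counts of these 3 rows are uncertain where their sequences are alike. The ratio of miR-21a-5p to miR-142a-3p was 5.88 for aging, 9.22 for SMK and 8.85 for HC, against 8.58 in CTL. Its ratio to the myeloid miR-223-3p was 9.27 for aging, 10.03 for SMK and 7.31 for HC, against 13.6 in CTL, so that every CRF library was below CTL on this measure.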
